A study of Mus musculus with 202 samples.

Results

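The genes described here encode the tubulins, the building blocks of microtubules: 3 alpha tubulins (Tuba1a, Tuba1b, Tuba1c), 5 beta tubulins (Tubb2a, Tubb2b, Tubb4b, Tubb5, Tubb6) and 1 gamma tubulin (Tubg1). They were taken by name, as the 9 rows with these symbols among the 23995 gene symbols of the deposited count table, by a rule that uses no measured value. Each library held the polyA RNA of 1 C57Bl/6J mouse oocyte at metaphase II (MII), the arrest in which an egg waits for sperm, prepared with Smart-seq2, a full-length single-cell method without molecular identifiers. The groups combine the generation of the oocyte (F1, F2 or F3) with the diet and the hormone given to the founding F0 female. Diet was a high fat, high sugar one (HFHS) or a control one (CD), and the hormone dihydrotestosterone (DHT), an androgen that cannot be converted to estrogen, or its vehicle (Veh). The study asked whether maternal androgen and diet leave a mark in the eggs of later generations. Of 202 libraries, the 157 with at least 100000 gene counts and 4000 detected genes were used.

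In F1 these were 8 of 15 CD+DHT, 14 of 15 HFHS+Veh, 13 of 15 HFHS+DHT and 10 of 15 CD+Veh oocytes. In F2 they were 25 of 25 CD+DHT, 20 of 20 HFHS+Veh, 5 of 5 HFHS+DHT and 16 of 20 CD+Veh oocytes. In F3 they were 13 of 24 CD+DHT, 13 of 24 HFHS+Veh and 20 of 24 CD+Veh oocytes. No oocyte titled as animal 25 of F3 HFHS+Veh was kept. All samples were C57Bl/6J, and the labels name no engineered allele. Groups follow the sample titles, which other labels contradict in 36 of the 202 samples. All 15 samples titled F1 HFHS+Veh and all 5 titled F2 HFHS+DHT name the other hormone treatment, 8 titled F2 HFHS+Veh (the 5 of animal 10 and 3 of animal 5) name F3, and 8 titled F3 HFHS+Veh (animal 22) name F2. An animal number was read from the titles of the F2 CD+DHT, HFHS+Veh and CD+Veh oocytes, which came from 5, 4 and 4 animals, and this reading is an inference. The other groups were treated as 1 sample of cells each, and comparisons among them have no replicate check.

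The used libraries held 133654 to 16359078 gene counts (median 2122239). The 14 oocyte markers, such as Zp3 and Gdf9, summed to a median of 14635 counts per 1000000 gene counts (CPM), 1 of them with a median of 0, which matches the label of the cells. Cumulus cells surround the ovulated oocyte, and 22 of their 34 markers had a median of 0. The sum of 32 of these markers, without Serpine2 and Cyp19a1, which nearly all oocytes held, ranged from 2.46 to 59917 CPM (median 274) and passed 1000 CPM in 46 of the 157 oocytes. The part of this cumulus RNA in the tubulin values was not tested except where a value without these oocytes is given.

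Microtubules are hollow filaments of alpha and beta tubulin heterodimers, and gamma tubulin, in ring complexes with other proteins, starts new filaments. In the mouse MII oocyte they form the meiotic spindle, which is built without centrioles and holds the chromosomes until fertilisation. The genes of one kind encode nearly the same protein, and the isotypes differ most in the acidic tail at the C terminus, where many tubulin modifications are placed. Tubulin mRNA is also under its own control: when free tubulin is in excess, the factor TTC5 recognises the first amino acids of a nascent tubulin on the ribosome and the mRNA is degraded.

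The tail sequences of 4 beta tubulin genes are shown first, since most of these isotypes can be told apart there. Tubb2a and Tubb2b are the exception: the bases at which they differ in these stretches leave the encoded amino acids the same. The stretches are the last 60 coding bases before the stop codon, read 5′ to 3′ from GENCODE vM21 transcripts on GRCm38 (mm10). Capitals mark bases that differ from Tubb5, or stand opposite a gap in Tubb5, when the whole coding sequences are aligned.

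Tubb2a (chr13:34074471-34074530, minus strand): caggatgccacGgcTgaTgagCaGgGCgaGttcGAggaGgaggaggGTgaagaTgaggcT

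Tubb2b (chr13:34127474-34127533, minus strand): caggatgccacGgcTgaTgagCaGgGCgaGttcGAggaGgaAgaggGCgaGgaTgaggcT

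Tubb4b (chr2:25222311-25222370, minus strand): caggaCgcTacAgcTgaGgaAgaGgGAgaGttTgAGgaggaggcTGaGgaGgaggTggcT

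Tubb5 (chr17:35834985-35835044, minus strand): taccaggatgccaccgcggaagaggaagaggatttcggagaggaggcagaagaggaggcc

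Tubb2a, Tubb2b and Tubb4b had 15, 17 and 19 such bases. The coding sequences of Tubb2a and Tubb2b were 96.5% identical, while all other pairs of the 5 beta tubulin genes were 80.6% to 84.6% identical. The 3 alpha tubulin genes were closer, with coding sequences 97.2% (Tuba1a) and 98.0% (Tuba1b) identical to that of Tuba1c and 98.3% identical to each other. The start of the coding sequence is the stretch that TTC5 reads in alpha and beta tubulins. Here are its first 60 bases in a beta and in the gamma tubulin gene, with the first 4 codons in capitals; each stretch spans 2 exons, so its coordinates include an intron.

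Tubb5 (chr17:35836734-35838053, minus strand): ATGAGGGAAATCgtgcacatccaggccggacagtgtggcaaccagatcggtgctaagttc

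Tubg1 (chr11:101120194-101120557, plus strand): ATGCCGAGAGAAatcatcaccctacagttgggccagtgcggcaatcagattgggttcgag

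The 3 alpha tubulin genes lie together on chromosome 15 (GRCm38): Tuba1b at chr15:98931425-98934565 and Tuba1a at chr15:98949837-98953703 on the minus strand, and Tuba1c at chr15:99029891-99038110 on the plus strand. Tubb2a (chr13:34074274-34078007) and Tubb2b (chr13:34126748-34130466) are neighbours on the minus strand of chromosome 13. Tubb4b (chr2:25222160-25224702) and Tubb5 (chr17:35833921-35838306) are on the minus strand, and Tubb6 (chr18:67390717-67402749) and Tubg1 (chr11:101119938-101126419) on the plus strand. Tubg1 has 11 exons in the annotation and the other 8 genes have 4 each.

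How far a read can be assigned to one of these genes depends on shared sequence. Of all 50-base windows of the mRNA, 72.9% of Tuba1a, 73.8% of Tuba1b and 60.99% of Tuba1c also occur in transcripts of other genes, mainly in each other. For Tubb2a and Tubb2b the shares were 49.6% and 39.3%, mainly with each other, and for Tubb4b it was 50.9%, mainly with its processed pseudogene Tubb4b-ps1. Tubg1 shared 14.09% of its windows, nearly all with Tubg2, Tubb5 shared 0.115% (3 windows) and Tubb6 shared 0. At 100 bases the alpha tubulin genes still shared 53.4% to 69.5% of their windows, and Tubb5 and Tubb6 shared 0. How the authors' counting treated reads that match several genes, or strand, is not given in the sources used here, so the split among Tuba1a, Tuba1b and Tuba1c, between Tubb2a and Tubb2b, and between Tubb4b and its pseudogene is uncertain, while Tubb5 and Tubb6 share almost no window. The annotation also places overlapping genes at Tuba1a, Tuba1b and Tubb4b.

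**Figure D1:**
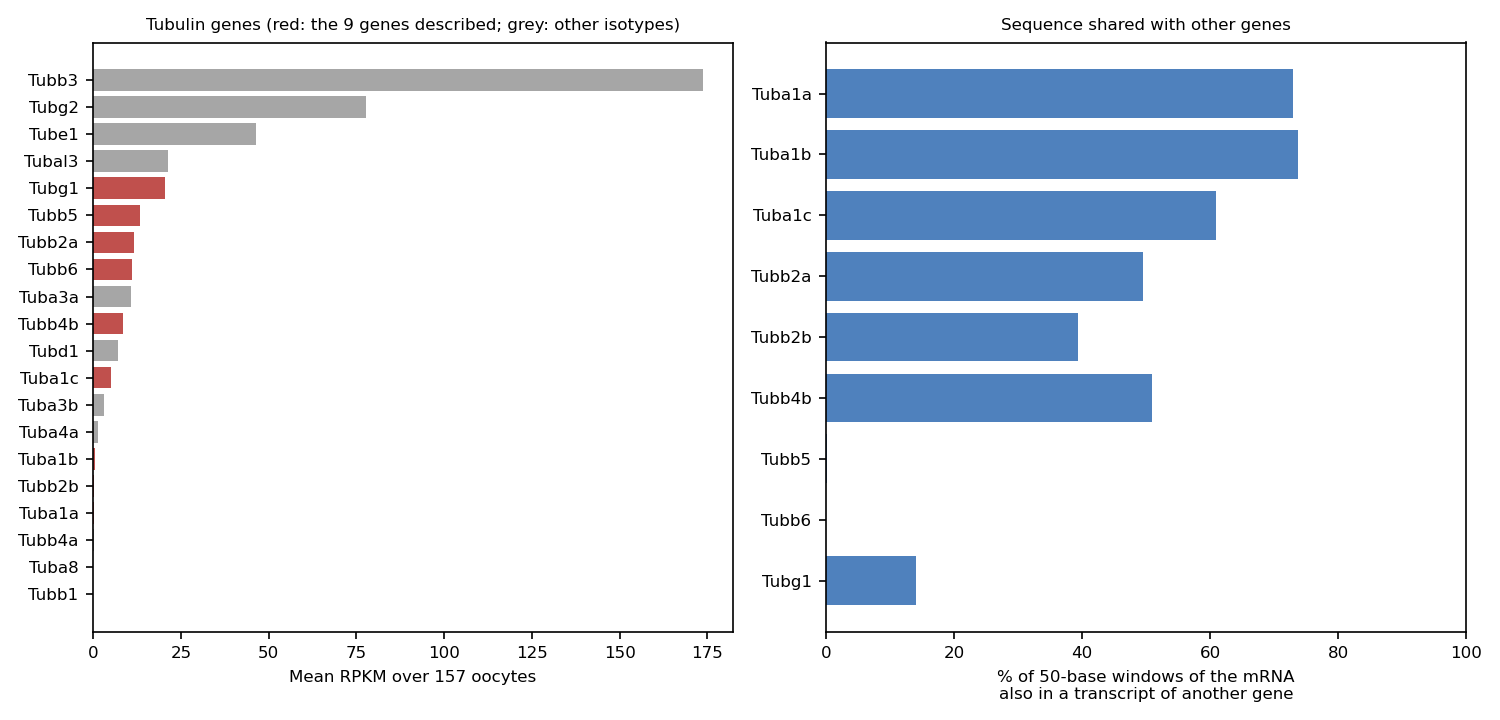
Left: mean RPKM (a level per transcript length and library size) over 157 oocytes of all 20 tubulin genes in the table, with the 9 genes described here in red and the other isotypes in grey. Right: percent of 50-base windows of each mRNA that also occur in transcripts of another gene. Tubb3 leads at 174 RPKM, and the red genes lie at 20.5 RPKM or below. Tubb5 and Tubb6 share almost no window.

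Levels of different genes were compared per length, as the RPKM (reads per kilobase and per unit of library size) the authors deposited. Averaged over the 157 oocytes, Tubg1 had 20.5 RPKM, Tubb5 13.38 RPKM, Tubb2a 11.8 RPKM, Tubb6 10.9 RPKM, Tubb4b 8.61 RPKM and Tuba1c 5.16 RPKM. Tuba1b (0.497 RPKM), Tubb2b (0.210 RPKM) and Tuba1a (0.196 RPKM) were near the floor, with a count in 74, 53 and 23 of the 157 oocytes. None of the 9 was the leading tubulin mRNA of its kind in these libraries by this measure when all isotypes are set side by side. Tubb3, best known as the beta tubulin of neurons, had 174 RPKM, Tubg2, the close relative of Tubg1, had 77.8 RPKM, the epsilon tubulin Tube1 had 46.3 RPKM and the alpha-like Tubal3 had 21.3 RPKM. Among the rest, Tuba3a had 10.9, Tubd1 7.19, Tuba3b 3.17, Tuba4a 1.26, Tubb4a 0.155, Tuba8 0.0249 and Tubb1 0.00068 RPKM.

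Neighbours in the order of the 9 genes were often reversed within an oocyte. Tubg1 had the higher RPKM than Tubb5 in 101 oocytes and the lower in 54. Tubb5 was above Tubb2a in 58 oocytes and below it in 98, although its mean was higher. Tubb2a exceeded Tubb6 in 89 oocytes and was below it in 63, and Tubb6 exceeded Tubb4b in 88 and was below it in 64. Tubb4b exceeded Tuba1c in 117 oocytes and was below it in 37. The step from Tuba1c to Tuba1b was the clearest, with Tuba1c higher in 142 oocytes and in all 13 F2 animals, and lower in 5 oocytes.

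Of the 3 alpha tubulin genes, Tuba1c carried most of the mRNA. It made up 88.2% of their summed mean RPKM over all oocytes, 76.4% to 98.0% by group, and was the highest of the 3 in 140 of the 147 oocytes with any of them. Given the shared windows, some Tuba1c counts could stem from Tuba1a or Tuba1b or the reverse, which was not tested. The beta tubulin mRNA was spread over 4 genes instead: Tubb5 made up 29.8% of the summed mean RPKM of the 5 beta genes, Tubb2a 26.22%, Tubb6 24.4%, Tubb4b 19.16% and Tubb2b 0.466%. The first place rests on F1 HFHS+Veh oocyte 1, which had 298 RPKM of Tubb5: without it Tubb5 averaged 11.56 RPKM and made up 26.73%, against 11.8 RPKM and 27.35% for Tubb2a. By median RPKM, Tubb2a (9.86) and Tubb6 (8.29) were also above Tubb5 (8.14). In single oocytes the leading gene among the 5 was Tubb2a in 47, Tubb5 in 44, Tubb6 in 43 and Tubb4b in 23 of 157 oocytes. The 5 beta genes together had 44.9 ± 33.5 RPKM (SD over 157 oocytes) and the 3 alpha genes 5.85 ± 5.26 RPKM, a ratio of 7.68 between the means. The beta sum was the higher one in 156 of 157 oocytes. Neither Tubb3 nor the other alpha isotypes enter these sums.

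**Figure D2:**
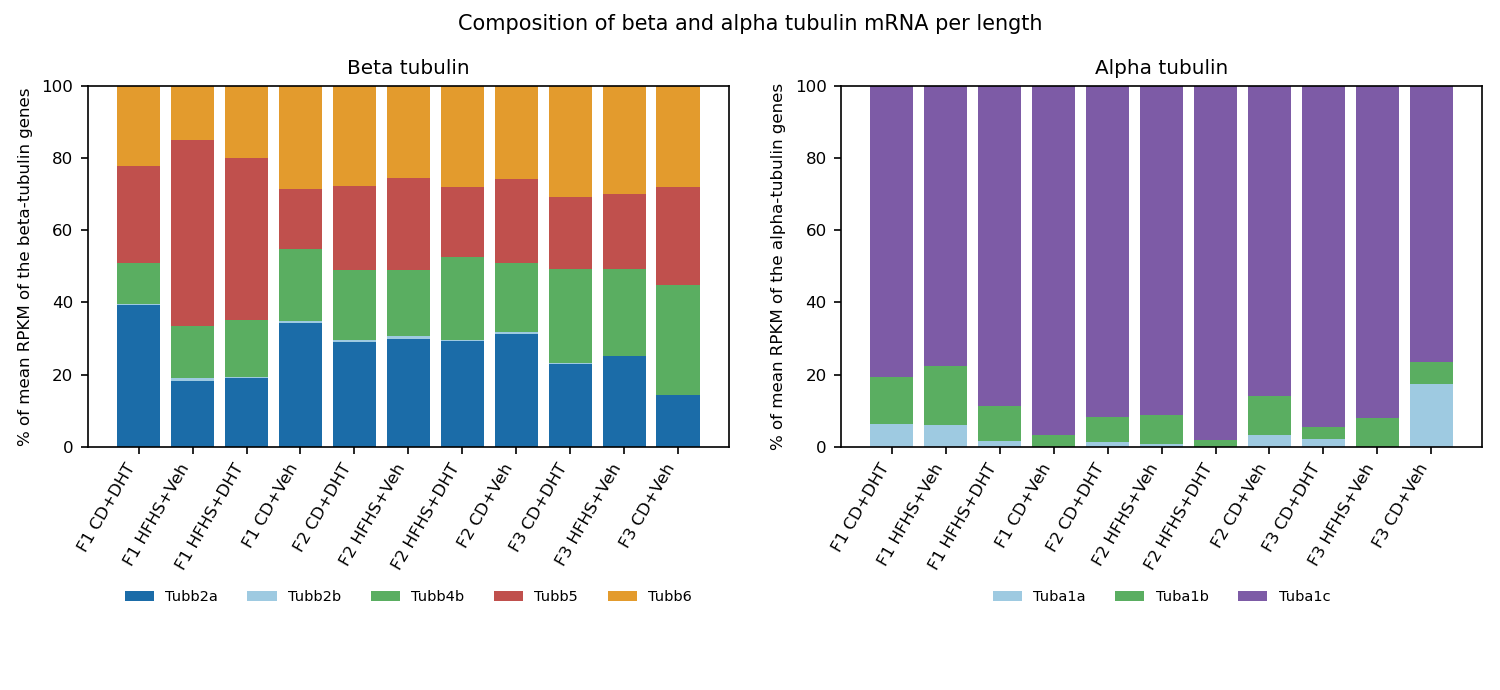
Share (%) of each gene in the summed mean RPKM of the 5 beta tubulin genes (left) and of the 3 alpha tubulin genes (right), for each of the 11 groups. Tubb5 (red) takes 51.6% and 44.7% of the beta sum in F1 HFHS+Veh and F1 HFHS+DHT oocytes, against 16.8% in F1 CD+Veh oocytes, and 34.7% in F1 HFHS+Veh without oocyte 1. Tuba1c (purple) takes at least 76.4% of the alpha sum in every group.

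The composition of the beta tubulin mRNA differed between groups in F1. Of the F1 beta sum, Tubb5 held 27.0% with CD+DHT, 51.6% with HFHS+Veh and 44.7% with HFHS+DHT, against 16.8% with CD+Veh. Without HFHS+Veh oocyte 1 the HFHS+Veh share was 34.7%. Tubb5 was the leading beta gene in 3 of 8 CD+DHT, 6 of 14 HFHS+Veh and 8 of 13 HFHS+DHT oocytes, against 0 of 10 CD+Veh oocytes of F1. In F3, Tubb4b led in 2 of 13 CD+DHT and 3 of 13 HFHS+Veh oocytes, against 10 of 20 CD+Veh oocytes, and Tubb2a led in 4 of 13 CD+DHT and 4 of 13 HFHS+Veh oocytes, against 0 of 20 CD+Veh oocytes. Across the 13 F2 animals Tubb5 ranged from 12.4% to 50.6% of the beta sum, a spread that reaches from below the F1 CD+Veh value to nearly the F1 HFHS+Veh value. These shares are descriptions of pooled groups, with no test.

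Tubb5 is one of the most widely expressed beta tubulins. Its level in F1 oocytes had a median of 41.3 CPM (0 to 74.6) in CD+DHT, 38.4 CPM (13.7 to 792) in HFHS+Veh and 44.4 CPM (13.9 to 222) in HFHS+DHT, against 19.21 CPM (5.78 to 31.6) in CD+Veh oocytes. In F2 oocytes the medians were 20.3 CPM (0.508 to 107) in CD+DHT, 23.004 CPM (7.74 to 129) in HFHS+Veh and 24.3 CPM (10.14 to 38.8) in HFHS+DHT, against 27.4 CPM (18.2 to 121) in CD+Veh. In F3 they were 9.22 CPM (0 to 82.0) in CD+DHT and 3.11 CPM (0 to 45.4) in HFHS+Veh, against 1.499 CPM (0 to 236) in CD+Veh. The ranges overlapped within every generation. In F1, 6 of 8 CD+DHT, 9 of 14 HFHS+Veh and 9 of 13 HFHS+DHT oocytes lay above the highest CD+Veh oocyte. For HFHS+Veh the higher median came with the 7 oocytes above 1000 CPM of cumulus markers, which had 36.47 to 792 CPM of Tubb5. At or below that limit the median was 19.41 CPM in 7 HFHS+Veh oocytes, against 19.21 CPM in 8 CD+Veh oocytes. It was 36.16 CPM in 6 CD+DHT and 36.67 CPM in 10 HFHS+DHT oocytes at or below the limit.

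Tubb5 had the widest range of the 9 genes, and 10 oocytes reached at least 100 CPM. The highest was F1 HFHS+Veh oocyte 1 with 792 CPM from 3011 counts, followed by F1 HFHS+Veh oocyte 7 with 245 CPM, F3 CD+Veh oocyte 21 with 236 CPM and F1 HFHS+DHT oocyte 2 with 222 CPM. By group they were 3 of 14 F1 HFHS+Veh, 1 of 13 F1 HFHS+DHT, 1 of 25 F2 CD+DHT, 3 of 20 F2 HFHS+Veh, 1 of 16 F2 CD+Veh and 1 of 20 F3 CD+Veh oocytes. Of these 10, 6 passed 1000 CPM in the cumulus markers, against 46 of all 157 oocytes (29.3%); F1 HFHS+Veh oocyte 1 had 10873 CPM and F3 CD+Veh oocyte 21 had 59917 CPM. The other 4 had 127 to 965 CPM of these markers. Over all oocytes the median of Tubb5 was 26.51 CPM in the 46 oocytes above the limit and 21.4 CPM in the other 111. Tubb2a had 7.52 CPM above it and 18.3 CPM in the others, and Tuba1c 5.59 CPM above it and 9.53 CPM in the others. Oocytes above the limit included 3 of 13 CD+DHT, 9 of 13 HFHS+Veh and 13 of 20 CD+Veh oocytes of F3. The split is thus uneven between generations, and cumulus RNA and generation were not separated here.

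**Figure D3:**
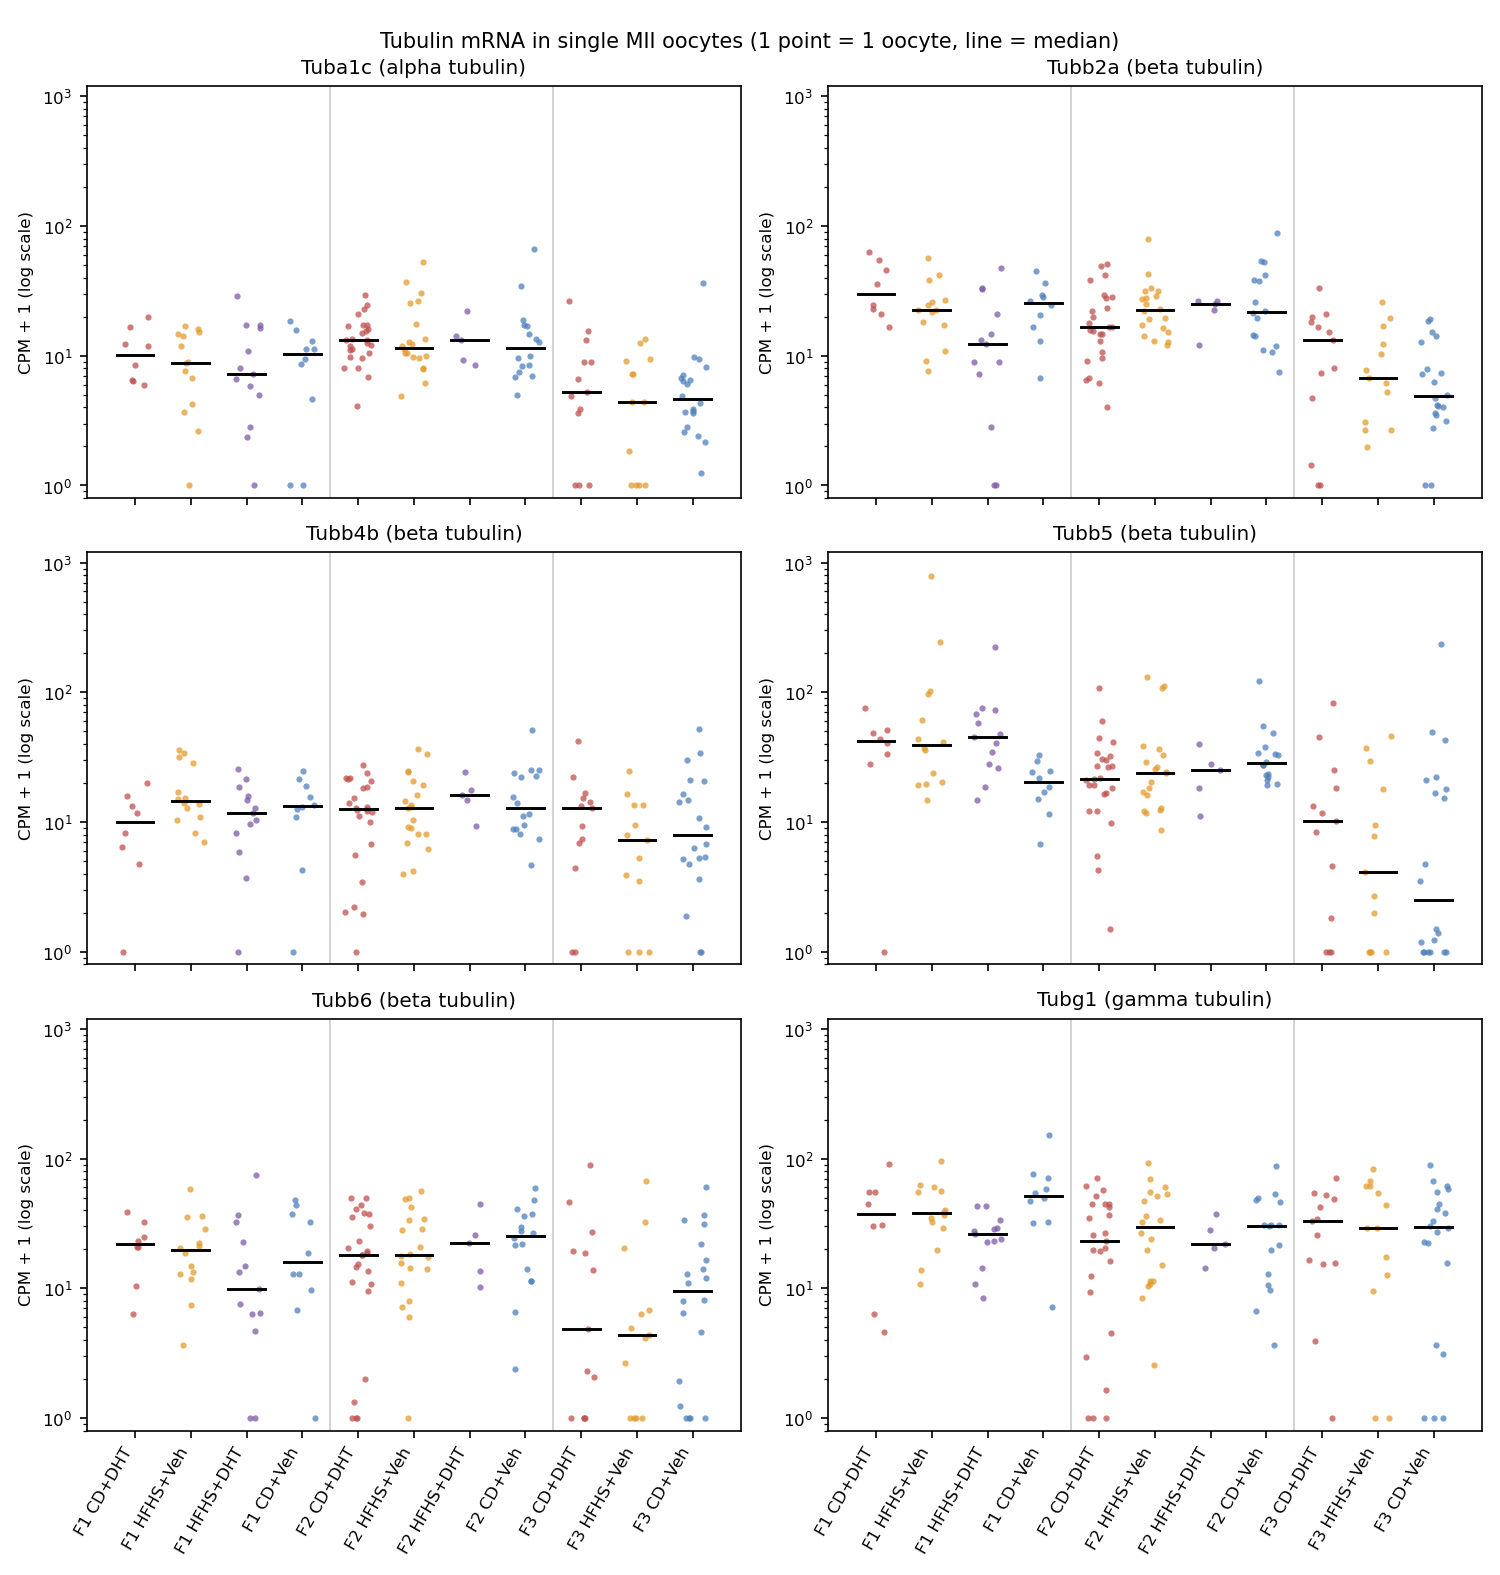
CPM + 1 on a log axis in each of 157 oocytes (points; line, median) for the 6 genes with a median above 0, by generation and group. The F1 medians of Tubb5 lie higher in the 3 groups other than CD+Veh, with ranges that overlap. In F1 oocytes at or below 1000 CPM of cumulus markers, the medians of HFHS+Veh (19.41 CPM) and CD+Veh (19.21 CPM) are nearly equal. The F3 medians of Tuba1c and Tubb5 lie below all those of F1 and F2.

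The median CPM of Tuba1c was in F1 9.21 CPM in CD+DHT, 7.86 in HFHS+Veh and 6.24 in HFHS+DHT, against 9.33 in CD+Veh, in F2 12.1 in CD+DHT, 10.6 in HFHS+Veh and 12.1 in HFHS+DHT, against 10.391 in CD+Veh, and in F3 4.29 in CD+DHT and 3.41 in HFHS+Veh, against 3.64 in CD+Veh. All 3 F3 medians of Tuba1c lay below those of F1 and F2. For Tubb2a, a beta tubulin abundant in the brain, the medians were in F1 29.1 CPM in CD+DHT, 21.5 in HFHS+Veh and 11.2 in HFHS+DHT, against 24.5 in CD+Veh, in F2 15.7 in CD+DHT, 21.5 in HFHS+Veh and 23.962 in HFHS+DHT, against 20.8 in CD+Veh, and in F3 12.1 in CD+DHT and 5.68 in HFHS+Veh, against 3.85 in CD+Veh. The F3 medians of HFHS+Veh and CD+Veh lay below those of F1 and F2. For Tubb4b the medians were in F1 8.99 CPM in CD+DHT, 13.6 in HFHS+Veh and 10.8 in HFHS+DHT, against 12.4 in CD+Veh, in F2 11.5 in CD+DHT, 11.9 in HFHS+Veh and 15.042 in HFHS+DHT, against 11.8 in CD+Veh, and in F3 11.9 in CD+DHT and 6.28 in HFHS+Veh, against 6.96 in CD+Veh. For Tubb6 the medians were in F1 21.1 CPM in CD+DHT, 18.6 in HFHS+Veh and 8.93 in HFHS+DHT, against 14.955 in CD+Veh, in F2 17.221 in CD+DHT, 17.020 in HFHS+Veh and 21.3 in HFHS+DHT, against 24.5 in CD+Veh, and in F3 3.89 in CD+DHT and 3.37 in HFHS+Veh, against 8.60 in CD+Veh. In each generation, the ranges of the groups overlapped for all 4 genes.

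Tubg1, the subunit of the rings that start microtubules, had a median of 29.1 CPM (0 to 150) and a count in 148 oocytes. Its F1 medians were 36.7 CPM in CD+DHT, 36.9 CPM in HFHS+Veh and 25.14 CPM in HFHS+DHT, against 50.6 CPM in CD+Veh oocytes, and all 13 HFHS+DHT oocytes lay below the CD+Veh median. In F2 they were 22.16 CPM in CD+DHT, 28.6 CPM in HFHS+Veh and 20.8 CPM in HFHS+DHT, against 29.3 CPM in CD+Veh, and in F3 they were 32.2 CPM in CD+DHT and 28.0 CPM in HFHS+Veh, against 28.6 CPM in CD+Veh. The group ranges overlapped in each generation. Across the 157 oocytes Tubg1 followed Tubb4b most closely among the 9 genes (Spearman 0.50) and Tubb5 least (-0.23), while Tuba1c and Tubb2a had 0.50, Tubb2a and Tubb6 0.45 and Tubb5 and Tubb6 -0.01. These oocytes share animals and differ in depth and cumulus RNA, so the coefficients are descriptions. Among 9008 genes with a count in most oocytes, those most like Tubb5 were Actb (0.62), the gene of beta actin, B4galt1 (0.59) and Nfia (0.56), where the top percentile of all genes began at 0.44. For Tubg1 they were the heat shock factor gene Hsf1 (0.70), Arhgef39 (0.69) and the signalosome subunit gene Cops8 (0.68), where the top percentile began at 0.53.

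In F2, where animals replicate the groups, no tubulin gene passed the test between lineages. Counts were summed per animal and tested over 11962 genes with edgeR's quasi-likelihood test and Benjamini-Hochberg adjustment at 0.05. The test called 0% of genes (0 of 11962) in each of the 3 contrasts. At an unadjusted p under 0.05 it gave 220, 118 and 125 genes for CD+DHT against CD+Veh, HFHS+Veh against CD+Veh and CD+DHT against HFHS+Veh. These counts are below the 598.1 expected by chance in each contrast, so an uncalled gene is not shown to be equal between groups. With limma on animal means of log2(CPM + 1) the counts were 747, 262 and 257, the first above 598.1. DESeq2 called 2, 1 and 1 genes, no tubulin gene among them. Tuba1a was too low to be tested. Of the other 8 genes, 0 were called and 0 had an unadjusted p under 0.05 in any contrast.

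Tuba1c had 12.4, 13.39, 10.99, 18.5 and 9.07 CPM in CD+DHT animals 17, 6, 7, 8 and 9 and 6.61, 10.9, 12.4 and 28.8 CPM in HFHS+Veh animals 10, 19, 4 and 5, against 9.38, 7.97, 11.3 and 46.3 CPM in CD+Veh animals 13, 14, 2 and 3. Animal 3 stood above all others and the rest of the groups overlapped. The log2 fold change was -0.25 (SE 0.44) for CD+DHT and -0.21 (SE 0.46) for HFHS+Veh, each against CD+Veh, with an adjusted p of 0.9999 or above in edgeR's test. Without CD+Veh animal 3 these became 0.47 and 0.51.

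Among the beta genes, Tubb5 had 23.1, 21.4, 23.9, 9.95 and 50.5 CPM in the CD+DHT animals and 23.4, 15.3, 21.6 and 69.2 CPM in the HFHS+Veh animals, against 25.48, 31.6, 20.02 and 81.3 CPM in the CD+Veh animals, in the same order. Each group held 1 animal (9, 5 and 3) at least at 50.5 CPM and the others at or below 31.6 CPM. Means were 25.77 ± 14.9 CPM in CD+DHT (SD, n = 5) and 32.4 ± 24.8 CPM in HFHS+Veh (n = 4), against 39.6 ± 28.2 CPM in CD+Veh (n = 4). The log2 fold changes were -0.32 (95% interval -1.29 to 0.64) for CD+DHT and -0.20 (-1.21 to 0.82) for HFHS+Veh against CD+Veh. The 2 highest oocytes of HFHS+Veh animal 5, at 112 and 108 CPM, had 1171 and 4158 CPM of cumulus markers, and the highest of CD+Veh animal 3, at 121 CPM, had 533 CPM. The highest oocyte of CD+DHT animal 9, at 107 CPM with 328 of its 529 Tubb5 counts, had 2328 CPM of these markers.

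Tubb2a had 31.5, 31.2, 21.8, 11.1 and 14.6 CPM in the CD+DHT animals and 14.38, 24.3, 27.9 and 22.19 CPM in the HFHS+Veh animals, against 15.2, 19.9, 35.5 and 62.6 CPM in the CD+Veh animals. Here too animal 3 was the highest and the groups overlapped, with log2 fold changes of -0.37 (SE 0.33) for CD+DHT and -0.44 (SE 0.35) for HFHS+Veh against CD+Veh. Tubb4b averaged 12.9 ± 4.63 CPM in CD+DHT and 13.33 ± 6.95 CPM in HFHS+Veh, against 15.6 ± 7.08 CPM in CD+Veh animals. Tubb6, the beta tubulin of class V, averaged 20.8 ± 10.42 CPM in CD+DHT and 22.79 ± 8.43 CPM in HFHS+Veh, against 26.98 ± 10.67 CPM in CD+Veh animals. Tuba1b and Tubb2b stayed at or below 3.15 CPM in every animal.

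Tubg1 had 50.7, 39.4, 38.9, 14.9 and 10.98 CPM in the CD+DHT animals and 16.01, 25.596, 52.4 and 40.9 CPM in the HFHS+Veh animals, against 24.3, 10.7, 49.3 and 27.6 CPM in the CD+Veh animals. Its log2 fold change was the only positive one of the 8 in CD+DHT against CD+Veh, at 0.27 (95% interval -0.55 to 1.10), but was -0.64 when every oocyte of an animal had the same weight (limma on log2(CPM + 1)), where the median of all genes moved to -0.27. In HFHS+Veh against CD+Veh it was 0.32 (-0.55 to 1.19). Between CD+DHT and HFHS+Veh it was -0.05 (-0.87 to 0.77).

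In CD+DHT against CD+Veh 7 of the 8 tested genes had a log2 fold change below 0 (median -0.29, all genes -0.01), in HFHS+Veh against CD+Veh 6 of 8 (median -0.16, all genes 0.02), and in CD+DHT against HFHS+Veh 6 of 8 (median -0.07, all genes -0.02). The first pair of contrasts shares the CD+Veh animals. Without CD+Veh animal 3 the medians were 0.01 and 0.21, with 4 of 8 and 3 of 8 below 0. The animals themselves differed widely: the SD between animals within groups was 0.85 for Tubb5 and 0.86 for Tubg1 on the log2(CPM + 1) scale, against a median of 0.44 and 0.45 for genes of similar level, 93.7% of which were lower for each.

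**Figure D4:**
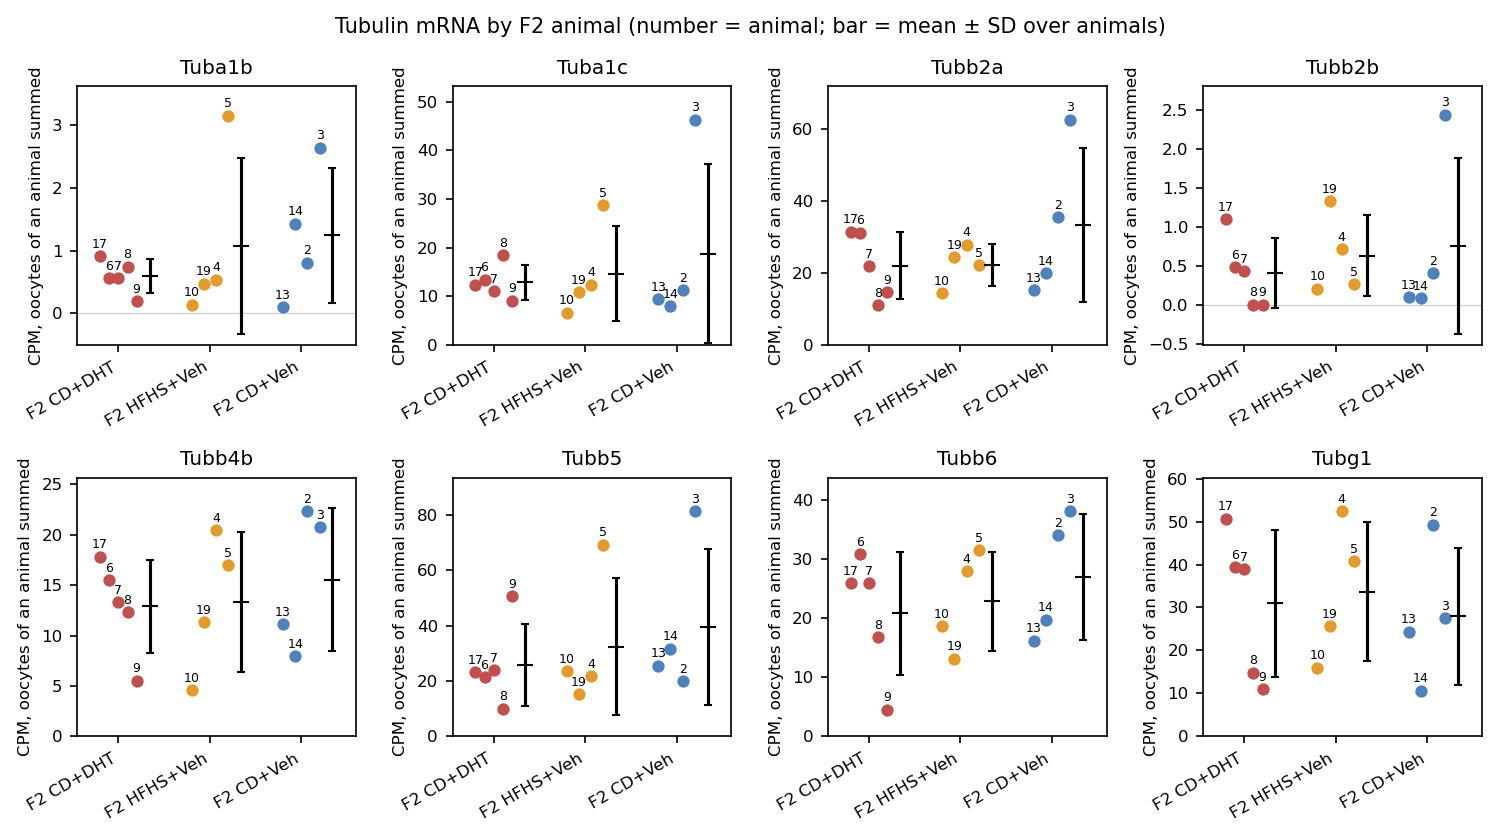
CPM of 8 tubulin genes in the summed oocytes of each F2 animal (numbered points) by group, with mean ± SD over 5 CD+DHT, 4 HFHS+Veh and 4 CD+Veh animals. The groups overlap for every gene, and animals 5 and 3 are the highest of HFHS+Veh and CD+Veh for Tuba1c and Tubb5.

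The 5 F2 HFHS+DHT oocytes name no animal and are given as levels. In oocytes 1 to 5, Tubb5 had 38.8, 17.36, 24.3, 26.998 and 10.14 CPM. Tuba1c had 7.55, 12.1, 20.97, 13.18 and 8.28 CPM and Tubg1 20.8, 13.31, 27.3, 19.35 and 36.2 CPM. All of these lay within the range of the F2 CD+Veh oocytes except the Tubb5 values of oocytes 2 and 5, below the lowest CD+Veh oocyte at 18.2 CPM. Cumulus markers were low in this group, at 13.9 to 33.8 CPM.

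Other tubulin isotypes and genes that act on tubulin gave the same F2 picture. Of 8 tested other isotypes, 19 genes of the gamma-tubulin complex and its recruiters, 23 folding factors (the chaperonin CCT, prefoldin and the tubulin cofactors), 15 modification enzymes and 26 spindle microtubule proteins, edgeR called 0 in every contrast. List medians lay between -0.13 and 0.16, where all genes had -0.02 to 0.02. The genes with the smallest p, none of which passed, were in CD+DHT against CD+Veh Nedd1 (0.32) and Mzt1 (0.35), which bring gamma tubulin to the spindle, and Tacc3 (-0.71), a spindle protein, and the glutamylase Ttll5 (-0.49). In HFHS+Veh against CD+Veh they were the chaperonin subunit Cct7 (0.72), Rcc1 (0.65), Pfdn1 (-0.70) and the cofactor Tbcb (-0.52). In CD+DHT against HFHS+Veh they were Mzt1 (0.37), Mzt2 (1.55, at most 4.604 CPM in any animal), Cdk5rap2 (-0.44) and Tacc3 (-0.41), all with an adjusted p of 0.9999 or above in edgeR's test.

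In F1, Tubb5 was higher in every lineage than in CD+Veh, by pooled counts. Here counts were pooled over the oocytes of a group, a gene was measured at a mean of at least 5 CPM over both groups, and a fold of at least 1.5 either way was counted; the intervals in parentheses are 95% and cover counting error only. Of 7280 genes measured in HFHS+Veh against CD+Veh, 11.1% passed that fold (6.79% toward higher values), and so did 1 of 6 measured tubulin genes. That gene, Tubb5, had 106 CPM in HFHS+Veh, against 20.9 CPM in CD+Veh, a log2 fold of 2.34 (2.2002 to 2.48). Oocyte 1 alone held 66.4% of the HFHS+Veh Tubb5 counts with 8.87% of all counts, and without it the value was 38.98 CPM and the log2 fold 0.90. The 7 HFHS+Veh oocytes above 1000 CPM of cumulus markers had 216 CPM of Tubb5 and the 7 at or below it 26.04 CPM, and without all such oocytes in both groups no tubulin gene passed, with Tubb5 at 0.32, and Tubb6 (-0.17 with all oocytes) and Tubg1 (-0.02) turned to 0.25 and 0.26. Tubb4b was at 0.84 without CD+Veh oocyte 6. The hormone label of all HFHS+Veh oocytes of F1 contradicts their title.

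In HFHS+DHT against CD+Veh, 17% of 7173 genes passed (6.43% toward higher values) and 1 of 6 tubulin genes, again Tubb5. It had 47.9 CPM in HFHS+DHT, against 20.9 CPM in CD+Veh, a log2 fold of 1.20 (1.03 to 1.36). Its oocyte medians gave nearly the same ratio, and in the 10 HFHS+DHT oocytes at or below 1000 CPM of cumulus markers it had 43.9 CPM, against 20.9 CPM in 8 such CD+Veh oocytes. Tubg1 had 30.5 CPM in HFHS+DHT, against 41.3 CPM in CD+Veh, a log2 fold of -0.44 (-0.60 to -0.28), which passed 1.5-fold at the oocyte medians (25.14 CPM in HFHS+DHT and 50.6 CPM in CD+Veh) and, at -0.59 to -0.61, without any one of HFHS+DHT oocytes 10 and 12 and CD+Veh oocyte 11. Leaving out one oocyte also moved Tubb2a to -0.73 (HFHS+DHT oocyte 10), Tubb4b to -0.59 (CD+Veh oocyte 11) and Tubb6 to 0.90 (CD+Veh oocyte 6). In HFHS+DHT against HFHS+Veh, 10% of 7302 genes passed toward lower values and 1 of 6 tubulin genes, Tubb5 at -1.14 (-1.25 to -1.04), which became 0.30 without HFHS+Veh oocyte 1. Tubb2a was at -0.88 without HFHS+DHT oocyte 10, Tubg1 at -0.59 without HFHS+DHT oocyte 12, and Tubb6 at 0.64 without HFHS+DHT oocyte 6 or 0.70 without HFHS+Veh oocyte 11.

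In CD+DHT against CD+Veh of F1, 15.4% of 7186 genes passed, 7.06% toward higher values, and 3 of 6 tubulin genes, each higher in CD+DHT. Tubb5 had 39.7 CPM in CD+DHT, against 20.9 CPM in CD+Veh, a log2 fold of 0.93 (0.71 to 1.14), and 7 of 8 CD+DHT oocytes lay above the CD+Veh median. Tuba1c had 12.4 CPM in CD+DHT, against 7.52 CPM in CD+Veh, at 0.72 (0.35 to 1.09), and Tubb2a 35.8 CPM in CD+DHT, against 23.01 CPM in CD+Veh, at 0.64 (0.42 to 0.85). The oocyte medians of Tuba1c ran the other way, at 9.21 CPM in CD+DHT, against 9.33 CPM in CD+Veh. Tuba1c and Tubb2a were short of 1.5-fold without CD+DHT oocyte 2, at 0.38 and 0.13, or without CD+Veh oocyte 11, at 0.37 and 0.42. Tubb4b (-0.11), Tubb6 (-0.02) and Tubg1 (-0.08) did not pass, but Tubb4b was at -0.60 without CD+Veh oocyte 11 and Tubb6 at 0.68 without CD+Veh oocyte 6. The 3 comparisons with CD+Veh share those 10 oocytes.

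**Figure D5:**
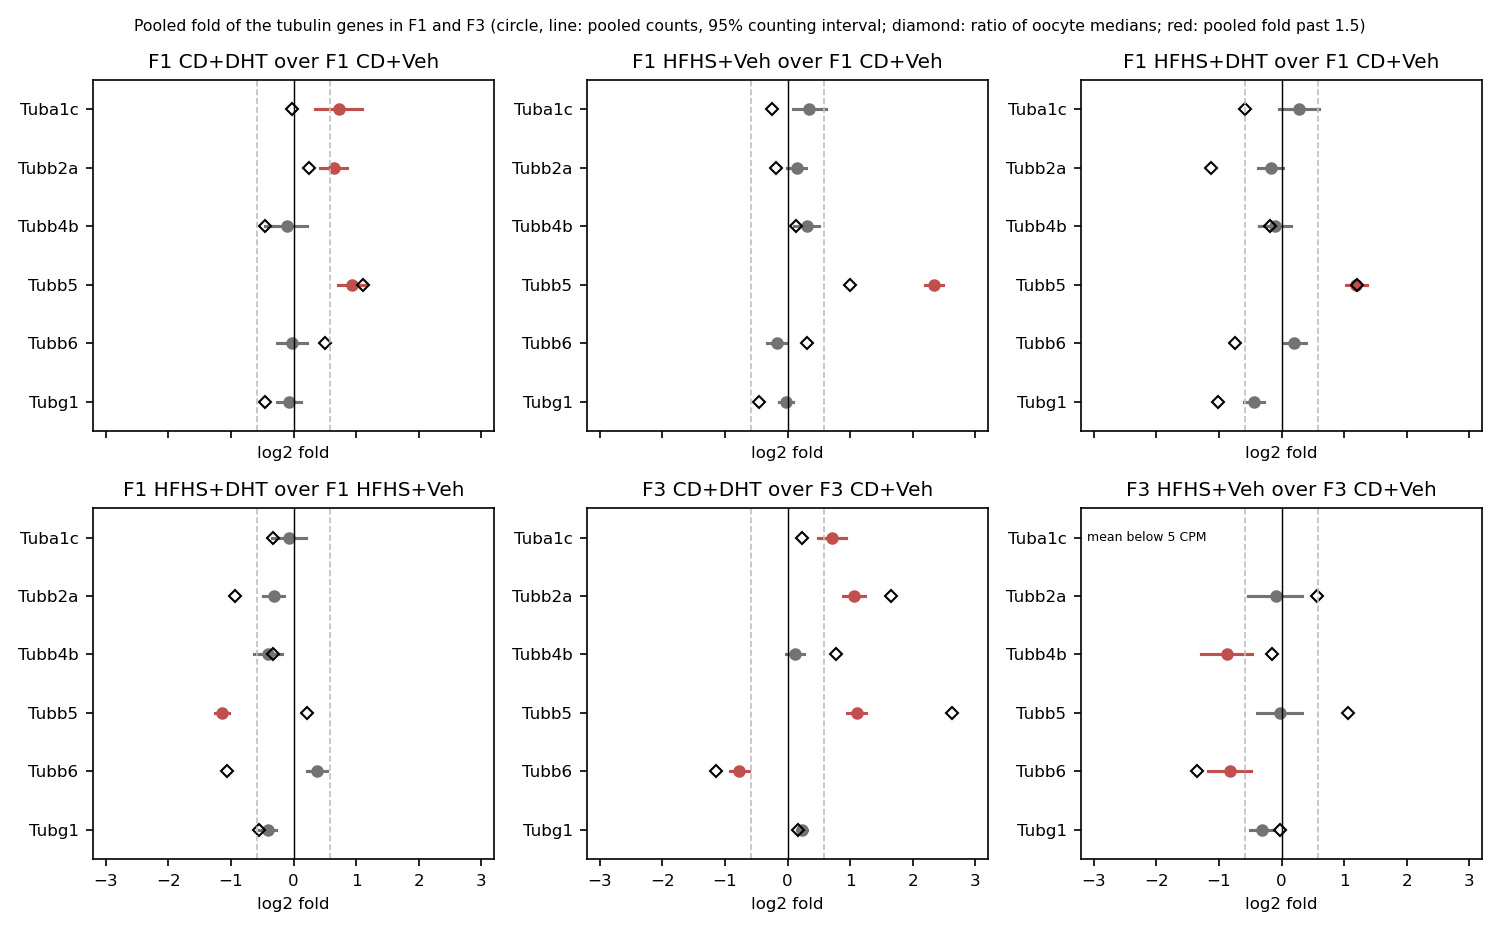
Pooled log2 fold (circle, with the 95% counting interval) and log2 ratio of oocyte medians (open diamond) of the 6 measured tubulin genes in 4 F1 and 2 F3 comparisons. Red circles are pooled folds of at least 1.5, whose limits are dashed. Tubb5 is right of 0 in all 3 F1 comparisons with CD+Veh by both measures, while in HFHS+DHT against HFHS+Veh the circle (-1.14) and the diamond (0.21) lie on opposite sides.

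In F3 CD+DHT against CD+Veh, 30% of 6957 genes passed 1.5-fold, and 4 of 6 tubulin genes. Tubb2a was higher, with 15.4 CPM in CD+DHT, against 7.37 CPM in CD+Veh, a log2 fold of 1.06 (0.89 to 1.24), and its medians were 12.1 CPM in CD+DHT and 3.85 CPM in CD+Veh. Tubb5 had 21.03 CPM in CD+DHT, against 9.78 CPM in CD+Veh, a log2 fold of 1.11 (0.96 to 1.25), of which oocyte 14 held 71.7% of the CD+DHT counts; without it the values were 9.04 CPM in CD+DHT and -0.11. In oocytes at or below 1000 CPM of cumulus markers, Tubb5 had 30.1 CPM in 10 CD+DHT oocytes, against 4.15 CPM in 7 CD+Veh oocytes, a log2 fold of 2.86. These 10 still include oocyte 14, at 44.1 CPM with 34.2% of all F3 CD+DHT gene counts, and this fold was not computed without it. The medians were 9.83 CPM in the 10 CD+DHT oocytes and 0.240 CPM in the 7 CD+Veh oocytes. Tuba1c was at 0.71 (0.48 to 0.94) and at 0.58, short of 1.5-fold, without CD+DHT oocyte 4. Tubb6 was lower, with 10.7 CPM in CD+DHT, against 18.2 CPM in CD+Veh, at -0.77 (-0.92 to -0.61), and at -0.32 without CD+DHT oocyte 15 or -0.25 without CD+Veh oocyte 23. By the means of the oocytes' CPM, Tubb5 was at -0.37 and Tubb6 at 0.32, so that both turned their direction. The CD+Veh mean of Tubb5 includes oocyte 21, at 236 CPM with 59917 CPM of cumulus markers. The CD+DHT mean of Tubb6 includes oocyte 12, at 88.0 CPM. Means without these oocytes are not given here. Tubg1 (0.23) and Tubb4b (0.12) did not pass. Without the oocytes above the cumulus limit Tubb2a (0.52) and Tubb6 (-0.19) were short of 1.5-fold, and Tubg1 turned to -0.47, with 34.1 CPM in CD+DHT, against 47.4 CPM in CD+Veh, and Tubb4b to -0.06.

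In F3 HFHS+Veh against the same CD+Veh oocytes, 30% of 6718 genes passed, 19.9% toward lower values. Of 5 measured tubulin genes 2 passed, both lower in HFHS+Veh. Tubb4b had 7.18 CPM in HFHS+Veh, against 13.07 CPM in CD+Veh, a log2 fold of -0.86 (-1.29 to -0.47), with a median of 6.28 CPM in HFHS+Veh, against 6.96 CPM in CD+Veh, and it was at -0.58 without CD+Veh oocyte 3. Tubb6 had 10.31 CPM in HFHS+Veh, against 18.2 CPM in CD+Veh, at -0.82 (-1.17 to -0.49), and was at -0.31 without CD+Veh oocyte 23 or -1.45 without HFHS+Veh oocyte 8 of animal 22. Tubb5 (-0.02), Tubb2a (-0.09) and Tubg1 (-0.31) did not pass, and Tuba1c was below 5 CPM on average. In the 4 HFHS+Veh and 7 CD+Veh oocytes at or below the cumulus limit, Tubb4b was at -1.68 and Tubb6 at -2.28, while Tubg1 turned to 0.25, with 56.4 CPM in HFHS+Veh, against 47.4 CPM in CD+Veh, and Tubb5 to 0.36. The 13 HFHS+Veh oocytes came from animals 22 and 26 and were shallow, with 186934 to 1186699 counts each, and 9 of them passed 1000 CPM of cumulus markers, as did 3 of 13 CD+DHT and 13 of 20 CD+Veh oocytes of F3. Tubb2b had 0 counts in 13 HFHS+Veh and in 20 CD+Veh oocytes, which allows up to 0.392 CPM in HFHS+Veh, against 0.0505 CPM in CD+Veh.

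Pooled folds of the other tubulin isotypes and the genes that act on tubulin were compared at 20 CPM or more. The largest in F1 CD+DHT against CD+Veh were those of Ttll5 (0.75) and Cep41 (0.64) upward. Downward they were those of Camsap3 (-1.01), which caps microtubule minus ends, and Cct7 (-0.77). Haus8, of the augmin complex that brings gamma tubulin to existing microtubules, was at -0.86 in HFHS+Veh and -1.13 in HFHS+DHT against F1 CD+Veh, and the tubulin cofactor gene Tbca was at 0.35 and 0.68. In F3 CD+DHT against CD+Veh the largest were Cep41 (1.43) and Tubal3 (0.93) upward and Haus6 (-0.99) downward. In F3 HFHS+Veh against CD+Veh they were Mzt1 (0.84), Cct2 (0.84) and Tube1 (0.66) upward and Camsap3 (-0.87) and Tubg2 (-0.76) downward. Not all oocyte medians followed these pooled folds. Haus6 had a median of 18.5 CPM in F3 CD+DHT, against 12.26 CPM in CD+Veh, and Tbca one of 36.5 CPM in F1 HFHS+Veh, against 38.2 CPM in CD+Veh, both opposite to the pooled fold. In F3 HFHS+Veh, Cct2 had a median of 20.95 CPM, against 21.33 CPM in CD+Veh, and Tubg2 one of 101.6 CPM, against 106.8 CPM in CD+Veh. Camsap3 had a median of 10.42 CPM in F1 CD+DHT, against 11.34 CPM in CD+Veh. In F3 HFHS+Veh its median was 0 CPM, against 0.859 CPM in CD+Veh. Over all these lists, 11 of 70 measured genes passed in F1 CD+DHT against CD+Veh (15.7%, against 15.4% of all genes), 8 of 68 in F1 HFHS+Veh (11.8%, against 11.1%), 11 of 68 in F1 HFHS+DHT (16.2%, against 17%), 11 of 65 in F3 CD+DHT (16.9%, against 30%) and 14 of 65 in F3 HFHS+Veh (21.5%, against 30%).

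The control groups of the 3 generations were set side by side last. In F3 CD+Veh against F2 CD+Veh, 64% of 7425 genes passed 1.5-fold and 4 of 6 tubulin genes, all lower in F3: Tuba1c (4.66 CPM in F3, 23.3 CPM in F2, log2 fold -2.32), Tubb2a (7.37 CPM in F3, 36.9 CPM in F2, -2.32), Tubb5 (9.78 CPM in F3, 46.8 CPM in F2, -2.26) and Tubb6 (18.2 CPM in F3, 27.7 CPM in F2, -0.60). Toward lower values alone, 37.7% of all genes passed. Without F2 CD+Veh animal 3 the log2 folds were -1.02 for Tuba1c (9.42 CPM in F2), -1.53 for Tubb2a (21.3 CPM), -1.41 for Tubb5 (25.94 CPM) and -0.23 for Tubb6 (21.4 CPM), the last short of 1.5-fold. Tubb6 was also short of it without F2 animal 2 or any one of 9 F3 oocytes, and Tubg1 (0.57) passed upward, at 0.59 to 0.80, without F2 animal 2 or 3 or any one of 9 F3 oocytes. Without the oocytes above the cumulus limit Tubb5 was at -3.52 and Tubg1 passed at 0.75. In F3 CD+Veh against F1 CD+Veh, 60.7% of 7198 genes passed, 32.2% toward lower values. Of 6 tubulin genes 3 passed, again lower in F3: Tubb2a (-1.64), Tubb5 (-1.10) and Tuba1c (-0.69). Tuba1c was at -0.57, short of 1.5-fold, without F1 oocyte 1, and Tubb6 (-0.39) passed at -0.91 without F3 oocyte 23 or at -0.73 without F1 oocyte 11. Without the oocytes above the cumulus limit Tubb5 was at -2.33 and Tubb6 passed at -0.61. In F2 CD+Veh against F1 CD+Veh, 19% of 7377 genes passed toward higher and 7.18% toward lower values in F2. Of 6 tubulin genes, 3 passed upward, Tuba1c (1.63), Tubb5 (1.16) and Tubb2a (0.68), and Tubg1 (-0.62) downward. All 3 upward calls rest on F2 animal 3: without it Tuba1c was at 0.33, Tubb5 at 0.31 and Tubb2a at -0.11, and the oocyte medians of Tubb2a were 20.8 CPM in F2, against 24.5 CPM in F1. Tubb2a was also short of 1.5-fold, at 0.46, without F1 oocyte 11, and Tubg1, at -0.45 to -0.57, without F2 animal 13 or 14, F1 oocyte 6 or 12, and, at -0.54, without the oocytes above the cumulus limit. Without F1 oocyte 6, Tubb4b passed at 0.79 and Tubb6 at 0.91. With all oocytes, Tubb4b passed in none of these 3 comparisons. More than 1000 CPM of cumulus markers was found in 13 of 20 F3, 1 of 16 F2 and 2 of 10 F1 CD+Veh oocytes, and any difference in how the libraries of a generation were made cannot be told apart from the generation.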

How the data were processed

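The polyA RNA of single MII oocytes was sequenced after Smart-seq2, per the labels. Raw gene counts and RPKM were deposited by the authors as 2 tables; per the submitters' processing notes the tools included STAR 2.4.2a and Seurat 2.0 and the genome build mm10, while the counting program, its annotation, its use of strand and its treatment of multiply matching reads are details not given in the sources used here. RPKM values were used as deposited, only to compare levels between genes. The 92 spike-in rows (0.0280% to 14.3% of a library, median 0.252%) stayed out of library sizes. CPM were computed from the counts of gene rows in oocytes with at least 100000 counts and 4000 detected genes. In F2, counts were summed per animal, identified by the title's number ahead of the point. They were tested in R 4.3.3 with edgeR 4.0.16 (TMM scaling, filterByExpr, quasi-likelihood test, Benjamini-Hochberg adjustment at 0.05). The fit was also run on simulated counts with the same dispersion for every gene. Its power for genes as variable between animals as Tubb5 and Tubg1 was thus not measured. Log2 fold intervals in F2 are 1.96 standard errors either way. DESeq2 1.42.0 and limma 3.58.1 on log2(CPM + 1) were alternatives. Groups of F1 and F3 were pooled, with exact Poisson intervals at 95% and no test; since there are no molecular identifiers, these intervals and the limits that a count of 0 allows (3 counts) cover counting error only. No labels tie the F2 animals to separate litters or founders, so p-values measure the spread between these animals. No 2 libraries held the same counts. Of the other isotypes and the genes that act on tubulin, the text names in each F2 contrast the 2 with the smallest p in each direction. In F1 and F3 it names some of the 3 largest pooled folds in each direction at 20 CPM or more. Correlated genes are the 3 highest Spearman coefficients for each gene with a median of at least 20 CPM. The tubulin genes and all lists were chosen with earlier results of these data known. The authors' 3 other deposited tables, of normalised expression by comparison, were not used here.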

Additional observations from a re-analysis of the deposited data

Results flagged for a closer look

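Of 39 groups of tubulin values with 4 to 10 samples, 6 held 1 sample far from the others by Dixon's test. Chance gives about 1 in 20 only for normally distributed values, which was not checked for these CPM. In F2, HFHS+Veh animal 5 stood high for Tubb5 (69.2 CPM) and for Tuba1b (3.15 CPM), and CD+Veh animal 3 for Tuba1c (46.3 CPM). In F2 HFHS+DHT, oocyte 1 was low for Tubb2a (11.04 CPM). In F1, CD+DHT oocyte 3 was high for Tuba1b (7.53 CPM) and CD+Veh oocyte 7 for Tubg1 (150.4 CPM). The 8 F1 CD+DHT oocytes together held only 5 Tuba1b counts, and 5 of these oocytes had 0. The part of the shared alpha tubulin sequence in the Tuba1b values was not tested.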

How the results depend on the processing

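No paired analysis was possible because the F2 animals carry different numbers in each group and the F1 and F3 comparisons come from no test. In F2, edgeR called 0 genes in each contrast, and DESeq2 called 2 in CD+DHT against CD+Veh, 1 in HFHS+Veh against CD+Veh and 1 in CD+DHT against HFHS+Veh. No tubulin gene was called under any alternative, so the changes of sign below are between values that passed no test, and the cause was not tested. With limma the log2 fold was -0.64 for Tubg1 in CD+DHT against CD+Veh (0.27 in edgeR), -0.031 for Tubb2b in HFHS+Veh against CD+Veh (0.03), and -0.46 for Tubb2a and -0.34 for Tubb4b in CD+DHT against HFHS+Veh (0.06 each). Without the F2 oocytes that another label calls F3, HFHS+Veh against CD+Veh gave 0.36 for Tuba1b, 0.31 for Tuba1c, 0.20 for Tubb4b and 0.071 for Tubb6, and CD+DHT against HFHS+Veh gave -0.12 for Tubb2a, -0.30 for Tubb4b and 0.53 for Tubb5. Without oocytes over 1000 CPM of cumulus markers, CD+DHT against HFHS+Veh gave 0.077 for Tubb5, 0.016 for Tubb6 and 0.074 for Tubg1. This limit and the set of 32 markers were chosen after seeing the data.

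Leaving out 1 animal at a time, the log2 fold in CD+DHT against CD+Veh ranged from -0.45 to 0.47 for Tuba1c, -0.93 to 1.10 for Tubb2b, -0.27 to 0.11 for Tubb4b and -0.88 to 0.073 for Tubb5. In HFHS+Veh against CD+Veh it ranged from -1.50 to 0.30 for Tuba1b, -0.67 to 0.51 for Tuba1c, -0.66 to 1.71 for Tubb2b, -0.42 to 0.10 for Tubb4b, -0.75 to 0.20 for Tubb5 and -0.28 to 0.033 for Tubb6. In CD+DHT against HFHS+Veh it ranged from -1.02 to 0.66 for Tuba1b, -0.24 to 0.42 for Tuba1c, -0.077 to 0.22 for Tubb2a, -0.89 to 0.084 for Tubb2b, -0.20 to 0.32 for Tubb4b, -0.69 to 0.43 for Tubb5, -0.27 to 0.15 for Tubb6 and -0.29 to 0.22 for Tubg1.

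In F1 and F3 the number of tubulin genes past 1.5-fold differed with how oocytes were weighted. In F1 CD+DHT against CD+Veh, 3 passed in pooled counts and 1 by oocyte medians (where Tuba1c was at -0.018), by oocyte means or by mean RPKM. In F1 HFHS+Veh against CD+Veh, 1 passed, 2 without the largest library of each group and 0 without the oocytes over 1000 CPM of cumulus markers. In F1 HFHS+DHT against CD+Veh, 1 passed, 4 by medians, 3 by means, by RPKM or without the largest libraries, and 2 without the cumulus-marker oocytes. In F1 HFHS+DHT against HFHS+Veh, 1 passed, 2 by medians (Tubb5 at 0.21), 4 by means or RPKM, and 3 without the cumulus-marker oocytes (Tubb5 at 0.75, against -1.14 in pooled counts). In F3 CD+DHT against CD+Veh, 4 passed, 1 by means (Tubb5 -0.37, Tubb6 0.32) or RPKM (Tubb5 -0.25, Tubb6 0.32), 2 without the largest libraries (Tubb5 -0.22) and 2 without the cumulus-marker oocytes. These means include CD+Veh oocyte 21 (236 CPM of Tubb5) and CD+DHT oocyte 12 (88.0 CPM of Tubb6). In F3 HFHS+Veh against CD+Veh, 2 passed, and 1 without the largest libraries or without animal 22. Tubb5 had the highest mean of the 9 genes in 6 groups by CPM and in 2 by RPKM. The shallow F3 HFHS+Veh libraries limit what can be seen there. The values without single oocytes, and those of the control groups without single animals, are alternatives chosen after seeing the data.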
